A study of Homo sapiens with 12 samples.

Results

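The 7 genes described here, TH, STMN2, ISL1, NCAM1, GAP43, CHGB and ELAVL4, are used as markers of neuroblasts and sympathetic neurons. They were taken by gene symbol from the annotation of a one-colour expression array and are 7 of the 13881 genes measured, each read by 1 of the 27561 probes. They were chosen by name with their measured levels on these 12 arrays known, so their levels are a description with no test. The labels name the cells as HepG2, an established human liver cancer line, grown in DMEM with fetal bovine serum. Per the labels, 3 arrays each came from cells given 25 µM glycyrrhizin, 25 µM silymarin or 25 µM ursodeoxycholic acid, and 3 from mock-treated control cells, 12 arrays in all. Glycyrrhizin comes from liquorice root, silymarin is the flavonolignan extract of milk thistle, and ursodeoxycholic acid is a bile acid used as a drug. How long the cells were treated and what the mock treatment held were not given in the sources used here. No label states that replicates were grown as separate cultures, so each p-value covers array-to-array spread that may be technical in part or in whole.

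Sympathetic neurons arise from neural crest cells, which pass through a neuroblast stage under a set of lineage transcription factors and then make noradrenaline. Tyrosine hydroxylase, encoded by TH, starts catecholamine synthesis from tyrosine. Growing neurites need cytoskeletal regulators and adhesion molecules, transmitter is packed in vesicles, and neuronal RNA-binding proteins stabilise the transcripts of differentiating neurons. In cells that are not neurons the repressor REST, with its corepressors, keeps many neuronal genes off.

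The 7 genes split into a bright and a dim set on every array. TH, STMN2, ISL1 and NCAM1 averaged 12.49, 11.08, 10.15 and 10.08 log2 intensity over the 12 arrays, and all 4 lay in the brightest 10% of genes, at percentiles 97, 94, 90.5 and 90.2 of the mean level. CHGB, GAP43 and ELAVL4 averaged 5.66, 5.2 and 3.28, below the median gene at 6.7, at percentiles 31, 21.8 and 0.1. For those 3 genes the levels therefore go against the name of the set, and the genes are called by their symbols here. Each probe has its own binding strength, and no detection call was used here, so a percentile places a probe's signal and does not rank transcript amounts. Whether a bright probe reads the transcript it is named for was not tested. In RNA from whole cultures, fewer cells with a transcript and less of it per cell cannot be told apart.

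**Figure D1:**
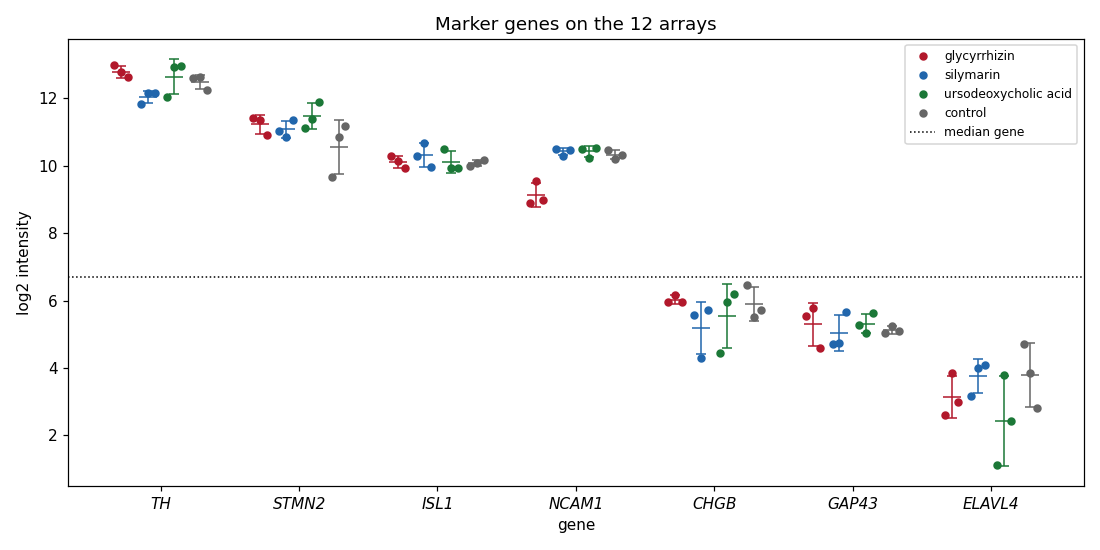
Log2 intensity (vertical axis) of the 7 marker genes on each of the 12 arrays, by group from left to right (glycyrrhizin, silymarin, ursodeoxycholic acid, control). Points are arrays, bars are the mean ± SD (n = 3) and the dotted line is the median gene at 6.7; TH, STMN2, ISL1 and NCAM1 lie above it on all arrays and CHGB, GAP43 and ELAVL4 below it.

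RefSeq promoter sequence was at hand for 3 of the 7 genes, ISL1, GAP43 and ELAVL4. A bright and a dim member with a single listed start, ISL1 and GAP43, are shown to set their start regions side by side. Each is the 250 bases before the start on GRCh38.p14, plus strand, at chr5:51383198-51383447 for ISL1 and chr3:115623260-115623509 for GAP43. Capitals mark the E-box CANNTG, the motif of basic helix-loop-helix factors, which reads the same on both strands as a pattern.
ISL1: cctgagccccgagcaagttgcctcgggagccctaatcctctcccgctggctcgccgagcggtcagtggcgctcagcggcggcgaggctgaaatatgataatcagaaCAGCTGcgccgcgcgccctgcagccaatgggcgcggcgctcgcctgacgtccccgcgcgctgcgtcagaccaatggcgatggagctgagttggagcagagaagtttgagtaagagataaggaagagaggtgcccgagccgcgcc
GAP43: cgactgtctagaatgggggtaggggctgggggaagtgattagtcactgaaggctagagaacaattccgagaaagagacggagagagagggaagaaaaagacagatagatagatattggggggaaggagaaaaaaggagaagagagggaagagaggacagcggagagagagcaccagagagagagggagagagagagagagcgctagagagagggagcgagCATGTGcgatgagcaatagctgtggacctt
The ISL1 stretch held 65.2% G and C and 27 CG pairs, and the GAP43 stretch 51.6% and 7, against medians of 58% and 11 over 35116 promoters of the same length. Each held 1 E-box, which begins 144 bases before the start in ISL1 and 30 before it in GAP43. Of all promoters, 61.8% held at least 1. A match describes the letters and is no evidence of binding.

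TH was the brightest of the 7 genes in all 4 groups. Its log2 intensity was 12.97, 12.77 and 12.62 with glycyrrhizin, 11.84, 12.14 and 12.16 with silymarin, 12.03, 12.93 and 12.94 with ursodeoxycholic acid, and 12.59, 12.62 and 12.25 in control. The 3 silymarin arrays lay below the 3 control arrays, where 10.8% of all genes did not overlap in one direction or the other, while the glycyrrhizin and ursodeoxycholic acid arrays overlapped control. On each array TH stood at percentile 97 to 98.2 of all probes. The order of group means was glycyrrhizin at 12.78 ± 0.18, ursodeoxycholic acid at 12.63 ± 0.52, control at 12.49 ± 0.21 and silymarin at 12.05 ± 0.18 (SD, n = 3 each). No neighbours in that order differed beyond their spread in limma: silymarin minus control, the widest step, was −0.44 (SE 0.27, adjusted p = 0.977). Ursodeoxycholic acid minus control was 0.15, and 0.45 without ursodeoxycholic acid replicate 1, which read 12.03.

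STMN2 encodes stathmin-2, a tubulin-binding protein of growing and regenerating axons. It read 11.4, 11.36 and 10.91 with glycyrrhizin, 11.03, 10.85 and 11.35 with silymarin, 11.13, 11.38 and 11.88 with ursodeoxycholic acid, and 9.66, 10.86 and 11.17 in control. Control replicate 1 lay below all 11 other arrays, and the arrays of each agent overlapped control, where 12.7% of all genes did not overlap with glycyrrhizin and 9.5% with ursodeoxycholic acid. The group means ran from 11.47 ± 0.38 with ursodeoxycholic acid through 11.23 ± 0.27 with glycyrrhizin and 11.08 ± 0.25 with silymarin to 10.56 ± 0.8 in control (SD, n = 3 each). The difference from control was 0.9 with ursodeoxycholic acid (SE 0.37, limma adjusted p = 0.925), which did not pass, and was 0.45 without control replicate 1. With glycyrrhizin and silymarin the differences of 0.66 and 0.51 became 0.21 and 0.06 without that array.

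ISL1, a LIM-homeodomain transcription factor of sympathetic, sensory and motor neurons and of pancreatic endocrine cells, had the narrowest range over the 12 arrays of the 7 genes. Its values were 10.29, 10.13 and 9.92 with glycyrrhizin, 10.28, 10.68 and 9.96 with silymarin, 10.5, 9.92 and 9.92 with ursodeoxycholic acid, and 10, 10.08 and 10.16 in control. All 12 values lay within 0.76 log2 units, and the arrays of every agent overlapped control. Group means were 10.31 ± 0.36 with silymarin, 10.11 ± 0.18 with glycyrrhizin, 10.11 ± 0.34 with ursodeoxycholic acid and 10.08 ± 0.08 in control (SD, n = 3 each), an order with no neighbours apart beyond their spread. The 95% interval of the difference from control was −0.51 to 0.58 for glycyrrhizin and also for ursodeoxycholic acid, and −0.31 to 0.77 for silymarin.

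NCAM1 encodes the neural cell adhesion molecule, which binds its like on neighbouring cells. On the glycyrrhizin arrays it read 8.9, 9.54 and 8.97, on the silymarin arrays 10.49, 10.3 and 10.47, on the ursodeoxycholic acid arrays 10.5, 10.24 and 10.52, and on the control arrays 10.45, 10.19 and 10.33. The 3 glycyrrhizin arrays lay below all 9 other arrays, a pattern shown by 99 of the 13881 genes, or 0.713%, while silymarin and ursodeoxycholic acid overlapped control and each other. The mean was 9.14 ± 0.35 with glycyrrhizin, 10.42 ± 0.11 with silymarin, 10.42 ± 0.15 with ursodeoxycholic acid and 10.32 ± 0.13 in control (SD, n = 3 each).

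With glycyrrhizin NCAM1 was measured 2.28-fold below control (log2 difference −1.19, SE 0.22, 95% interval −1.67 to −0.71, 3 of 3 arrays lower). Its p of 0.000211 in limma ranked 11th of 13881 genes, and its adjusted p of 0.266 did not pass the threshold of 0.05. When the estimate of spread was allowed to follow the level (limma with trend and robust estimation) the adjusted p was 0.015. Under that setting glycyrrhizin against control called 17 genes in all, or 0.122%. Over the other 9 settings, which left out no array of these groups, the adjusted p lay above 0.05 and went up to 0.813. Leaving out 1 array at a time gave differences of −1.39 to −1.07 and adjusted p-values of 0.157 to 0.768. Glycyrrhizin minus silymarin was −1.28 (SE 0.22, adjusted p = 0.0952), and 4 of 10 alternative settings called it, among them the trend setting, which called 1.46% of all genes there (adjusted p = 0.00352). Glycyrrhizin minus ursodeoxycholic acid was −1.29 (SE 0.22, adjusted p = 0.388), and 0 of 10 called it. These comparisons share the glycyrrhizin arrays and are not independent of each other. Silymarin and ursodeoxycholic acid each differed from control by 0.1, with a 95% interval of −0.38 to 0.58.

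CHGB encodes chromogranin B, a protein of dense-core vesicles in neuroendocrine cells. It was dim, at 5.96, 6.17 and 5.95 with glycyrrhizin, 5.56, 4.31 and 5.71 with silymarin, 4.45, 5.97 and 6.18 with ursodeoxycholic acid, and 6.47, 5.51 and 5.73 in control. Silymarin replicate 2 and ursodeoxycholic acid replicate 1 were each the lowest of their group by more than 1 log2 unit, and every agent overlapped control. The difference from control was −0.71 with silymarin and −0.27 without that array, and −0.37 with ursodeoxycholic acid and 0.17 without that array. Without control replicate 1 these differences were −0.43 and −0.09. Over all probes, silymarin replicate 2 and ursodeoxycholic acid replicate 1 agreed least with the other arrays (median r = 0.911 and 0.908, array weights 0.57 and 0.56). They also held the highest values of ISL1, 10.68 and 10.5, and ursodeoxycholic acid replicate 1 the lowest of ELAVL4, 1.12. On ursodeoxycholic acid replicate 1 TH read 12.03, against 12.93 and 12.94 on the other arrays of its group. Whether deviation of the whole arrays accounts for these values was not tested. The means were 6.02 ± 0.12 with glycyrrhizin, 5.53 ± 0.94 with ursodeoxycholic acid, 5.19 ± 0.77 with silymarin and 5.91 ± 0.5 in control (SD, n = 3 each).

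GAP43, a membrane-bound growth cone protein phosphorylated by protein kinase C, was dim on all 12 arrays, at 5.53, 5.79 and 4.58 with glycyrrhizin, 4.72, 4.74 and 5.66 with silymarin, 5.27, 5.05 and 5.62 with ursodeoxycholic acid, and 5.04, 5.26 and 5.1 in control. The control values lay within the range of the glycyrrhizin and the silymarin arrays. It averaged 5.3 ± 0.64 with glycyrrhizin, 5.04 ± 0.54 with silymarin, 5.31 ± 0.29 with ursodeoxycholic acid and 5.14 ± 0.11 in control (SD, n = 3 each). On single arrays it stood at percentile 12.1 to 37.7 of all probes.

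ELAVL4 encodes HuD, which binds AU-rich elements and stabilises neuronal transcripts. It was among the dimmest genes of the table, at 2.62, 3.84 and 3 with glycyrrhizin, 3.17, 4 and 4.09 with silymarin, 1.12, 3.79 and 2.42 with ursodeoxycholic acid, and 4.72, 3.84 and 2.81 in control. The arrays of each agent overlapped control. Its lowest value, on ursodeoxycholic acid replicate 1, was an intensity of 2.17, where the lowest value in the table is 1. At this level the log2 scale spreads small differences widely, and its difference of −1.35 for ursodeoxycholic acid had a 95% interval of −2.81 to 0.11. That difference was −0.69 without ursodeoxycholic acid replicate 1, −2.03 without its replicate 2, −0.89 without control replicate 1, −0.94 with array weights and −0.45 with an offset of 16 added to the intensities.

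Across the 7 genes 0 passed an adjusted p of 0.05 in limma with any agent against control or with the mean of the 3 agents against control. Among all genes those comparisons called 0%, so the count of members reads the same as the background. At an unadjusted p under 0.05 the count was 1 of 7 with glycyrrhizin (NCAM1, lower), 0 with silymarin, 1 with ursodeoxycholic acid (STMN2, higher) and 1 for the mean of the agents (STMN2). Among all genes the shares were 5.37%, 4.89%, 5.29% and 4.26%. The median difference of the 7 genes was 0.12 with glycyrrhizin, −0.04 with silymarin and 0.1 with ursodeoxycholic acid, against 0.02 over all genes in each case. The 3 agents were set against the same control arrays, so these values are not independent.

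**Figure D2:**
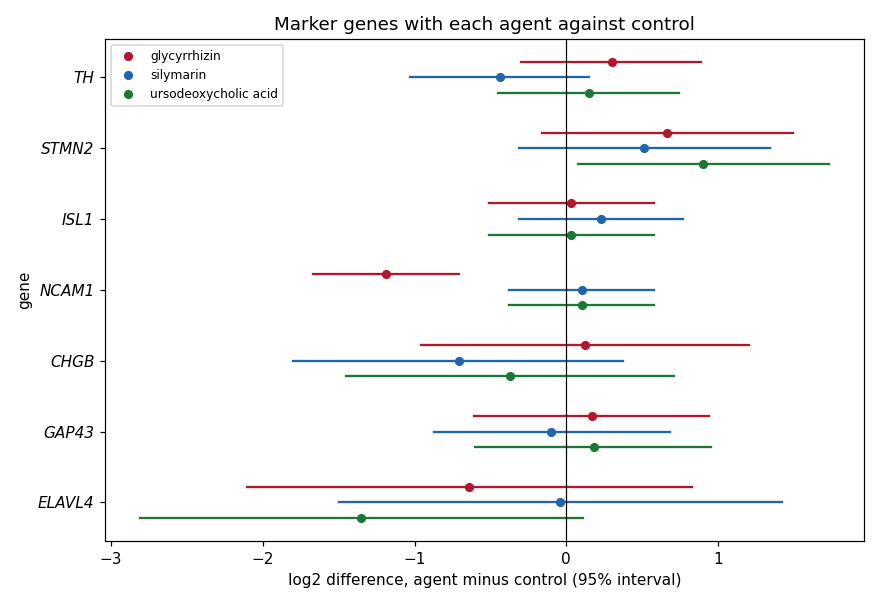
Log2 difference of each agent minus control (horizontal axis) for the 7 marker genes, with points for the limma estimate and lines for the 95% interval. The interval leaves out 0 for NCAM1 with glycyrrhizin (−1.67 to −0.71) and for STMN2 with ursodeoxycholic acid (0.08 to 1.73); neither passed after adjustment over all genes.

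The pairs of agents likewise called 0 of the 7 genes in limma, where glycyrrhizin against silymarin called 0.0504% of all genes, glycyrrhizin against ursodeoxycholic acid 0% and silymarin against ursodeoxycholic acid 0.0288%. At an unadjusted p under 0.05 the counts were 2 of 7 in glycyrrhizin against silymarin (TH and NCAM1), 1 in glycyrrhizin against ursodeoxycholic acid (NCAM1) and 0 in silymarin against ursodeoxycholic acid. The shares of all genes were 9.31%, 4.68% and 8.04%. TH was 0.74 higher with glycyrrhizin than with silymarin (SE 0.27, adjusted p = 0.4). For silymarin against ursodeoxycholic acid the lowest p of the 7 belonged to TH (difference −0.59, SE 0.27, adjusted p = 0.622). Between glycyrrhizin and silymarin the arrays of TH, CHGB and NCAM1 did not overlap, the first 2 higher and NCAM1 lower with glycyrrhizin, which holds for 18.2% of all genes in either direction. The count was 1 of 7 for glycyrrhizin against ursodeoxycholic acid (NCAM1) and 0 of 7 for silymarin against ursodeoxycholic acid, beside 11.6% and 14.7% of all genes.

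The bright genes varied unequally between arrays of a group. The residual SD within groups was 0.48 for STMN2 and 0.31 for TH, where the 500 genes nearest in level had medians of 0.2 and 0.17, placing them at percentiles 94.2 and 89.2 of that spread. For ISL1 and NCAM1 it was 0.27 and 0.21, close to the median of 0.24 at their level. Among the dim genes ELAVL4 had 0.91, CHGB 0.66 and GAP43 0.45, against medians of 1, 0.5 and 0.54. For STMN2 the SD was 0.8 in control, where replicate 1 read 9.66, and 0.25 to 0.38 in the other groups. For TH it was 0.52 with ursodeoxycholic acid, where replicate 1 read 12.03, and 0.18 to 0.21 in the other groups. How far these single arrays account for the spread of STMN2 and TH was not tested.

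**Figure D3:**
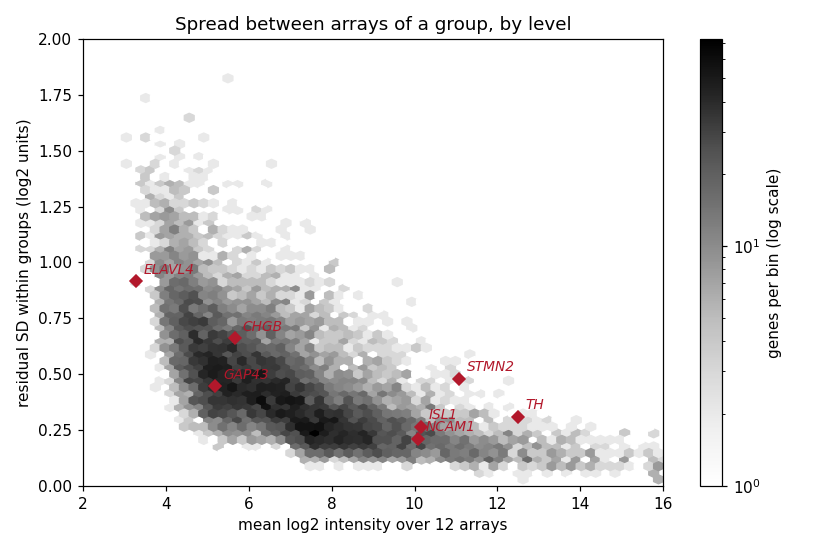
Residual SD within groups (vertical axis, log2 units) against the mean log2 intensity over the 12 arrays (horizontal axis) for all 13881 genes, with darker bins holding more genes on a log scale. Diamonds are the 7 marker genes: STMN2 at 0.48 and TH at 0.31 lie above most genes of their level, and ISL1 at 0.27 and NCAM1 at 0.21 lie within them.

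Lists of genes that share the members' roles had medians on both sides of the median gene. Of 13 measured genes of catecholamine synthesis, storage, uptake and breakdown, 1 lay in the brightest 10%, TH itself, and the list's median of 6.75 was near the median gene at 6.7. The dimmest were GCH1 at 4.62, which makes the first step towards the cofactor of tyrosine hydroxylase, the vesicular monoamine transporter SLC18A1 at 4.77 and cytochrome CYB561 at 4.77, which supplies electrons inside chromaffin granules. DDC, the enzyme after tyrosine hydroxylase, averaged 8.05 and PNMT, which makes adrenaline, 9.91, both named after their values were seen. DBH was not analysed here.

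Of 12 measured transcription factors of the sympathetic lineage 1 lay in the brightest 10%, ISL1, with a list median of 7.47. PHOX2A at 8.94, HAND2 at 8.77 and GATA3 at 7.67, named after their values were seen, were above the median gene, GATA2 at 6.52 was below it, and LMO1 at 3.43, TBX2 at 5.03 and SOX11 at 5.58 were the dimmest.

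Among 18 genes of the axonal and growth cone cytoskeleton the brightest 10% held STMN2 and the beta-tubulin TUBB2B at 15.66, and the median was 7.4. The motor protein KIF1A at 4.63, the stathmin STMN4 at 4.99 and the dendritic protein MAP2 at 5.11 were the dimmest. In the list of 10 neuronal adhesion and polysialylation genes, with a median of 5.91, NCAM1 alone lay in the brightest 10%. Its paralog NCAM2 averaged 4.19, and the adhesion molecules NFASC and NRCAM 4.97 and 5.04. ST8SIA2, an enzyme that adds polysialic acid to NCAM1, was measured at 9.75 and the second such enzyme, ST8SIA4, at 5.4, both named after their values were seen.

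Of 15 dense-core vesicle genes 1, the secretory granule membrane protein PTPRN at 11.9, lay in the brightest 10%, and 8 lay in the dimmer 50% of genes. The dimmest were PTPRN2 at 4.19, the neuropeptide precursor VGF at 4.85 and the priming factor CADPS at 5.14. CHGA, the relative of CHGB, averaged 6.93 and SCG2, another granin, 9.08, named after their values were seen. Of 5 neuronal RNA-binding proteins the splicing regulator NOVA2 lay in the brightest 10% at 11.23, while ELAVL4 and its relative ELAVL2, at 5.14, were in the dimmer 50%. The synaptic vesicle list of 7 genes had the membrane fusion protein STX1A at 10.12 in the brightest 10%, with SV2A at 5.1, SV2B at 5.47 and SYP at 6.73 dimmest. Of 13 receptors of the sympathoadrenal lineage 0 were in the brightest 10%, and RET, the receptor subunit for glial-derived neurotrophic factors, was the dimmest at 4.56, followed by EDNRB at 5.43 and GFRA3 at 6.09.

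REST averaged 4.76, at percentile 13.1. The other 6 measured genes of the REST list were above the median gene, and the histone deacetylase HDAC2 at 12.28 and the scaffold SIN3A at 10.17 were in the brightest 10%. REST lay between 3.14 and 5.02 with glycyrrhizin, 4.68 and 5.72 with silymarin, 4.74 and 5.32 with ursodeoxycholic acid and 4.6 and 4.73 in control.

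Lists of markers of other cell types also held both bright and dim genes. The vesicular glutamate transporter SLC17A7 averaged 13.54, in a list of 12 markers of other neuron types with a median of 7.17, of which 5 lay in the dimmer 50% of genes. TPH2 at 4.2, GAD2 at 4.77 and MNX1 at 5.97 were the dimmest. The homeobox factor NKX2-2 averaged 12.15, in a list of 9 pancreatic endocrine markers with a median of 7.94 and 4 in the dimmer 50%, of which NEUROD1 at 5.03, GCG at 5.93 and IAPP at 6.46 were the dimmest. The peripheral myelin protein PMP22, also made by many cells outside the nervous system, averaged 12.45 in a list of 9 glial and neural crest markers with a median of 5.28 and 6 in the dimmer 50%, which includes GFAP at 3.73, FABP7 at 4.37 and S100B at 4.86. The T-cell receptor subunit CD3D averaged 11.35 in a list of 8 leukocyte markers with a median of 7.54 and 3 in the dimmer 50%, LYZ at 4.57, CD3E at 5.29 and PTPRC at 5.49. VIM at 15.53, TWIST1 at 13.32 and COL1A1 at 10.13 were in the brightest 10% among 8 mesenchymal markers with a median of 6.43, and 4 of the 8 were in the dimmer 50%, with PRRX1 at 5.39, SNAI2 at 5.72 and COL1A2 at 6.03 dimmest. Each of these lists held between 1 and 3 genes in the brightest 10%.

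The labelled cell type was checked in the same way. Of 14 measured hepatocyte markers 0 lay in the brightest 10% and 6 in the dimmer 50%, and the median was 6.75. The brightest was apolipoprotein APOB at 8.89, named after its values were seen. APOH at 3.55, APOA2 at 5.17 and AMBP at 5.71 were the dimmest. ALB was not analysed here. The summed intensity of the 14 markers per array was 1731 to 1875 with glycyrrhizin, 1748 to 2056 with silymarin, 1693 to 2310 with ursodeoxycholic acid and 1821 to 2022 in control.

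**Figure D4:**
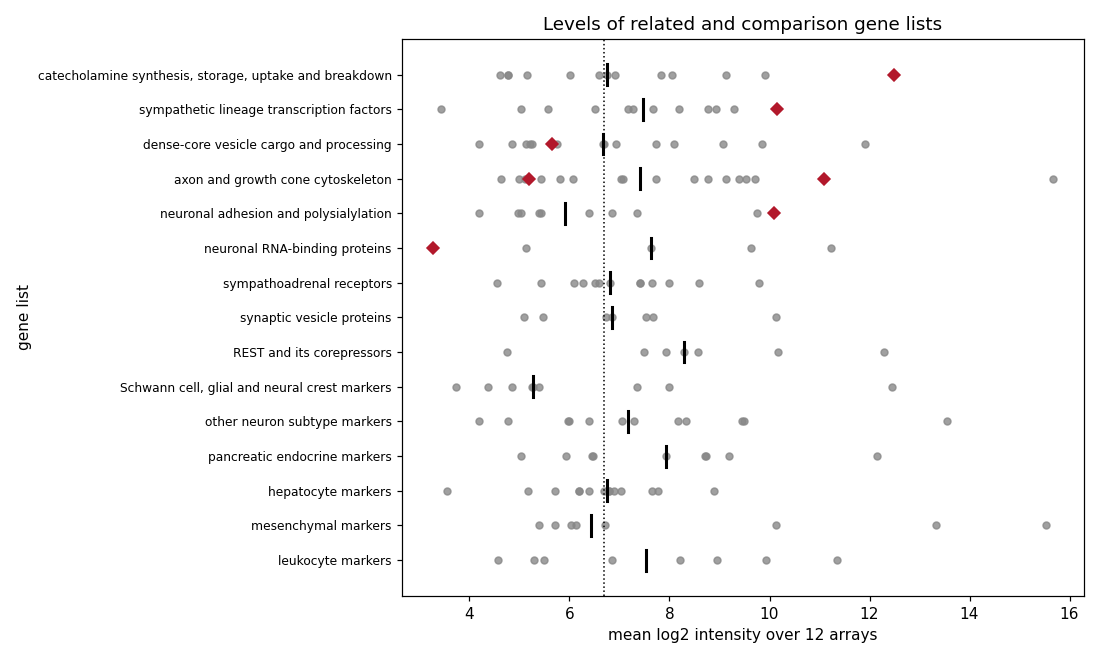
Mean log2 intensity over the 12 arrays (horizontal axis) of the genes of 15 lists (rows), with grey points for genes, diamonds for the 7 marker genes, black bars for the list medians and a dotted line for the median gene at 6.7. TH, ISL1, STMN2 and NCAM1 lie at or near the bright end of their lists, whose medians run from 5.91 to 7.47. ELAVL4 at 3.28 is the dimmest of its list, and CHGB at 5.66 and GAP43 at 5.2 lie below the medians of theirs. No hepatocyte marker is above 8.89.

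With each agent against control, 0 genes of the 15 lists and 0% of all genes passed in limma. Each single-gene difference given below had an unadjusted p under 0.05. So did 5.37%, 4.89% and 5.29% of all genes with glycyrrhizin, silymarin and ursodeoxycholic acid. Other list genes did too and are not detailed, among them GFRA1 with silymarin, NEFM with ursodeoxycholic acid, and RET, TFAP2B and AFP with glycyrrhizin. In the synaptic vesicle list SNAP25, a membrane fusion protein, was 7.14 ± 0.34 with glycyrrhizin, 8.4 ± 0.25 with silymarin, 7.18 ± 0.22 with ursodeoxycholic acid and 7.99 ± 0.06 in control (SD, n = 3 each; named after its values were seen). Its differences of −0.85 with glycyrrhizin and −0.82 with ursodeoxycholic acid had limma adjusted p-values of 0.674 and 0.741. With glycyrrhizin 5 of 7 genes of that list were measured above control and 2 below (median difference 0.12), with silymarin 5 of 7 above (median 0.23) and with ursodeoxycholic acid 4 of 7 above (median 0.12), where the median over all genes was 0.02 with each agent. In the dense-core vesicle list SCG2 differed by −0.79 with glycyrrhizin (adjusted p = 0.738) and by −0.92 with ursodeoxycholic acid (adjusted p = 0.671), and PTPRN by −0.97 with silymarin (adjusted p = 0.977). Of the 15 genes of that list 10, 5 and 10 were above control with glycyrrhizin, silymarin and ursodeoxycholic acid, with medians of 0.1, −0.19 and 0.08. In the receptor list CHRNA7, a nicotinic acetylcholine receptor subunit, differed by −1.01 with glycyrrhizin and by −1.52 with ursodeoxycholic acid (limma adjusted p = 0.861 and 0.712; named after its values were seen). The CHRNA7 values in control ran from 6.57 to 8.4. EDNRB, an endothelin receptor, differed by 0.96 with silymarin (adjusted p = 0.977). Its silymarin arrays ran from 5 to 7.02 and its control arrays from 4.67 to 5.14. In the receptor list 8, 6 and 5 of 13 genes were above control with glycyrrhizin, silymarin and ursodeoxycholic acid (medians 0.08, −0.09 and −0.09). Of the 10 adhesion genes 5, 6 and 6 were above control with the same agents, with medians of 0, 0.05 and 0.06. Beside these counts, 47.5%, 47.7% and 47.7% of all genes were below control with the same agents.

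The genes whose levels followed the bright members most closely over the 12 arrays were sought among 6939 genes above the median gene, by Pearson's r. Being the highest of so many, these values carry no p. The values given below without some arrays are for genes chosen over all 12, so they are no separate check. TH was followed by MYO19, a mitochondrial myosin, with r = 0.91 and Spearman's rho = 0.88, then by TSPAN10 (r = 0.9) and KCNK15 (r = 0.89). Without the 2 arrays farthest from the median of TH these were 0.84, 0.87 and 0.85. STMN2 was followed by TRABD (r = 0.97, rho = 0.9), EPB42 (r = 0.96) and DENND1C (r = 0.95), and without its 2 farthest arrays by 0.82, 0.78 and 0.77. For ISL1 they were SLIT1, an axon guidance ligand (r = 0.96, rho = 0.94), PHYKPL (r = 0.94) and AGO1 (r = 0.94), with 0.88, 0.9 and 0.8 without its 2 farthest arrays. NCAM1 falls into 2 clusters of arrays, glycyrrhizin and the rest. Over the 9 arrays without glycyrrhizin its 3 closest genes over all arrays, PSMB5, RSRC1 and SLTM, had r = 0.35, 0.22 and 0.38, so the likeness rests on the glycyrrhizin arrays.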

How the data were processed

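The table the authors deposited holds linear intensity values, 1 for each probe on each array. The submitters' processing notes name limma; how it was used, the scanner and the background correction were not given in the sources used here. At a given rank the 12 arrays spread by a median of 1.22%, so the values had been brought to 1 distribution. Array medians lay between 85.8 and 86.6; precision is limited by having 3 arrays a group.

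Of 27561 probes, 15650 had 1 gene symbol, 0 had several and 11911 none. Older symbols of 2355 probes were updated and 68 with several updates kept, giving 13881 genes, each read by its brightest probe. Group means of log2 intensity were fitted for all probes (limma 3.58.1, R 4.3.3; lmFit and eBayes with 8 residual and 2.8 prior degrees of freedom). For 7 comparisons, two-sided p-values then had a Benjamini-Hochberg adjustment over the 13881 genes, with a threshold of 0.05.

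The members, lists, alternatives and naming rule were chosen with earlier results of these data known. The rule named all members, each list's genes in the brightest 10%, up to 3 dimmest and any called, and for each bright member the 3 genes of highest correlation. Genes outside it are said to be named after their values were seen.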

Additional observations from a re-analysis of the deposited data

How the results depend on the processing

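Of 648 values of the members' differences under alternatives, 621 kept their direction and side of the threshold and 22 changed sign. The other 5 passed where the main setting did not, all for NCAM1 with glycyrrhizin. Many of the 648 could not change direction, so the count is no measure of robustness. Each member is read by 1 probe, so the settings on probes repeat the main difference. Settings that change only the estimate of spread, and fits without an array outside the comparison, also keep it. Of the 7 genes, 1 (NCAM1) was called in glycyrrhizin against silymarin with the dimmer 50% of probes left out, with the variance trend, with array weights and with an offset of 16, and 1 (NCAM1) in glycyrrhizin against control with the variance trend. The main counts over all genes were 0 for each agent and for their mean against control, 7 for glycyrrhizin against silymarin, 0 for glycyrrhizin against ursodeoxycholic acid and 4 for silymarin against ursodeoxycholic acid. Glycyrrhizin against control called 3 genes without the dim probes, 1 with the mean of all probes of a gene, 17 with the variance trend, 3 with array weights, 2 with the offset and 1 with the spread taken from the gene probes alone, a setting chosen after seeing the data. Silymarin against control called 2, 4, 1 and 1 without the dim probes, with the trend, with array weights and with the offset. Ursodeoxycholic acid against control called 2 without the dim probes and 6 with the trend, and the mean of the agents 3 with the trend. Glycyrrhizin against silymarin called 68 without the dim probes, 202 with the trend, 20 with array weights, 18 with the offset and 0 on the compared groups only. Silymarin against ursodeoxycholic acid called 7 with the mean of all probes, 0 with every probe fitted separately, 16 with the trend, 0 on the compared groups only and 7 with the gene probes alone. Ranked among the brighter 50% of probes alone, 1 of the 7 genes (TH) lay in the brightest 10%, against 4 in the main setting, because fewer genes are ranked. The cause of the other changes was not tested.

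With the replicate number as a block, glycyrrhizin against silymarin and silymarin against ursodeoxycholic acid each called 0 genes and the members' calls did not change. Deviations of same-numbered arrays of different groups correlated at a median r of 0.0235 (range −0.189 to 0.153). For arrays of different numbers the median was −0.005 (range −0.231 to 0.272). On average, 5 of 12 arrays correlated best with arrays of their own number. With so few arrays in a group and overlapping ranges, these values cannot settle whether same-numbered arrays were processed together.

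Leaving out 1 array at a time called 0 to 5 genes for glycyrrhizin against silymarin, 0 to 28 for silymarin against ursodeoxycholic acid (28 without ursodeoxycholic acid replicate 3), 0 to 2 for ursodeoxycholic acid against control (2 without its replicate 3) and 0 of the 7 members in every comparison. Some differences changed sign there. CHGB ran from −0.08 to 0.4 with glycyrrhizin and −0.7 to 0.17 with ursodeoxycholic acid, ELAVL4 from −0.53 to 0.43 with silymarin, GAP43 from −0.08 to 0.53 with glycyrrhizin, −0.41 to 0.06 with silymarin and −0.02 to 0.2 for the mean of the agents, ISL1 from −0.05 to 0.13 with glycyrrhizin and −0.16 to 0.13 with ursodeoxycholic acid, and TH from −0.01 to 0.45 with ursodeoxycholic acid and −0.12 to 0.1 for the mean. With array weights ISL1 was −0.04 with ursodeoxycholic acid and TH 0 when rounded for the mean of the agents. Dim probes limit what CHGB, GAP43 and ELAVL4 can show: the offset moved the mean level of GAP43 to 5.73 and of ELAVL4 to 4.75.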
